A study of Homo sapiens with 24 samples.

Results

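Fatty acids are built and desaturated by a short series of enzymes, and 10 genes of this pathway were followed here across 3 herbal extracts and 2 cancer cell lines. They are SREBF1, ACLY, ACACA, FASN, ELOVL6, ELOVL5, SCD, FADS1, FADS2 and ACSL3, chosen by name for their role in the pathway. All 10 were among the 14585 genes of the deposited table, all 10 passed the filter on low counts in both lines, and all are described. In A549 cells 9, 8 and 8 of the 10 fell with the extracts of P. chinensis, of B. chinense and of P. umbellatus, with median log2 fold changes of -0.41, -0.30 and -0.34 over the 10. In Huh7 cells 9, 3 and 6 fell, with medians of -0.94, -0.34 and -0.43, and FADS2 and FASN went to 0.391 and 0.394 of the control level with P. chinensis. Of all genes tested, 17.1%, 15% and 14.8% fell in A549 cells and 10.5%, 0.757% and 17.8% in Huh7 cells, in the same order. No member rose against control in any of these 6 comparisons.

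Citrate exported from mitochondria is cleaved by ATP citrate lyase (ACLY) to acetyl-CoA, which acetyl-CoA carboxylase (ACACA) turns into malonyl-CoA and fatty acid synthase (FASN) builds into palmitate. Palmitate is lengthened by ELOVL6 and given its first double bond by stearoyl-CoA desaturase (SCD), while FADS2, ELOVL5 and FADS1 desaturate and lengthen polyunsaturated chains, and ACSL3 joins free fatty acids to coenzyme A. SREBF1 encodes the transcription factor SREBP1, which switches on most of these genes when sterols or unsaturated fats are scarce, and the liver is a main site of the pathway.

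A549 is a human lung carcinoma line and Huh7 a human hepatocellular carcinoma line, both labelled wild type. The authors describe p53 as wild type in A549 and as mutant in Huh7 cells. Cells of each line were either controls or treated with an extract of Pulsatilla chinensis, Bupleurum chinense or Polyporus umbellatus. There were 3 replicates per group, 8 groups and 24 libraries. The extracts are crude mixtures made with ethanol, freeze-dried and dissolved in DMSO. Dose and duration for the sequenced cells, and whether the control cells received DMSO, are not given in the sources used here, and nothing says whether replicates came from separate cultures, so p-values measure the spread between these samples, which may be technical. Bulk RNA was measured, so a change in the mix of cell states and a change in each cell cannot be told apart.

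The libraries held between 6803648 and 24345364 counts, with a median of 10515131. In Huh7 cells the control and P. chinensis libraries held 13259116 to 24345364 counts, and those of the other two herbs 7182412 to 11546054, and the part that depth had in the Huh7 results was not tested. The 8 hepatocyte markers summed to 13040 to 24460 CPM (counts scaled to a common library size) in Huh7 libraries and to 24.52 to 37.27 CPM in A549 libraries. The lung marker SFTPB was at 1.01 to 2.7 CPM in A549 cells, where NKX2-1, SFTPC, SFTPA1 and SCGB1A1 have no row in the table. The 7 epithelial and A549 markers summed to 13980 to 17380 CPM in A549 libraries and to 2487 to 5587 CPM in Huh7 libraries. Markers of fibroblasts, endothelium and leukocytes each summed to at most 57.91 CPM in every library. Of the 8 hepatocyte markers, 4 fell and 1 rose with P. chinensis in Huh7 cells, 0 fell and 1 rose with B. chinense, and 4 fell and 1 rose with P. umbellatus. Of the 7 epithelial and A549 markers, 3, 2 and 4 fell and 1 rose each time in A549 cells. Of the 4 fibroblast markers, 2 rose with P. chinensis in Huh7 cells (median 0.79) and 1 fell with P. umbellatus (median -0.47). The part of these markers in the results was not tested. One library stood apart: replicate 2 of P. umbellatus in Huh7 cells had the lowest SREBF1, FASN and FADS2 of the 24 libraries, and their P. umbellatus values are given with and without it, as are the calls that changed without it.

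The start regions of 3 members are shown, as those of a member that fell with every herb in both lines (SCD), of one that was called with every herb in A549 cells and with none in Huh7 cells (ELOVL5) and of the regulator itself (SREBF1). Each holds 250 bases before and 50 bases after the start, from RefSeq on GRCh38.p14, and lies at chr10:100346983-100347282 on the plus strand, chr6:53348901-53349200 on the minus strand and chr17:17836937-17837236 on the minus strand in that order. Capitals mark the NF-Y box CCAAT, the Sp1 box GGGCGG and the E-box CACGTG on either strand.
SCD: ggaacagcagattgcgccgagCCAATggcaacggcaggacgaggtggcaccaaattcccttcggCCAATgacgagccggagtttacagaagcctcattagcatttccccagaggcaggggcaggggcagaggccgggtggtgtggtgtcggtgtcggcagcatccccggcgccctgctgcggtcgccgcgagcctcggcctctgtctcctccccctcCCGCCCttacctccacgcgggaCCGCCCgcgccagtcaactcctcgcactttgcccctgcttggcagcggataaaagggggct
ELOVL5: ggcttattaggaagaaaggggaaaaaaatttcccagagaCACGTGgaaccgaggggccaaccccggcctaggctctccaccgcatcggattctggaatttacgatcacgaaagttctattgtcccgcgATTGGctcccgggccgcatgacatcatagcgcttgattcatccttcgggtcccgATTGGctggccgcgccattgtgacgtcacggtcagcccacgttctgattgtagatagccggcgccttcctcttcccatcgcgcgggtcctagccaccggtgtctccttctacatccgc
SREBF1: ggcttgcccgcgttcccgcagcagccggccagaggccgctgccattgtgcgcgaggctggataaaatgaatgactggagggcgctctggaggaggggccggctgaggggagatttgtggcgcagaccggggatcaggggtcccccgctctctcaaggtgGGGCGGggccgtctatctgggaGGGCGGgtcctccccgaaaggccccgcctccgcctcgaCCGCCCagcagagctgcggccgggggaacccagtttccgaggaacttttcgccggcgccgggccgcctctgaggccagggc

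SCD held 2 NF-Y boxes and 2 Sp1 boxes, ELOVL5 held 2 NF-Y boxes and 1 E-box, and SREBF1 held 3 Sp1 boxes. RefSeq windows were found for 9 of the 10 members, in 13 windows, some of which overlap. FASN is named only. An NF-Y box stood in 8 of the 13 and in 34.6% of all 35116 windows of that length, and an Sp1 box in 10 of the 13 and in 45% of all. The sterol regulatory element, searched as TCACNCCAC, was in 0 of the 13 and in 1.13% of all windows, and the E-box in 1 of the 13 and in 7.26% of all. These are matches of letters in a short window and say nothing about binding.

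The members lie on 6 chromosomes of GRCh38. SREBF1 (ENSG00000072310) is at chr17:17810399-17837002, ACLY (ENSG00000131473) at chr17:41866917-41930542, ACACA (ENSG00000278540) at chr17:37084992-37406836 and FASN (ENSG00000169710) at chr17:82078338-82098294, all on the minus strand. FADS1 (ENSG00000149485), at chr11:61799627-61829318 on the minus strand, and FADS2 (ENSG00000134824), at chr11:61792980-61867354 on the plus strand, overlap. The kit kept strand, but whether kallisto used it is not given in the sources used here, so reads of their shared stretch are uncertain. SCD (ENSG00000099194) is at chr10:100347233-100364826 on the plus strand, ELOVL5 (ENSG00000012660) at chr6:53267398-53349179 and ELOVL6 (ENSG00000170522) at chr4:110045846-110199199 on the minus strand, and ACSL3 (ENSG00000123983) at chr2:222860942-222944639 on the plus strand.

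**Figure D1:**
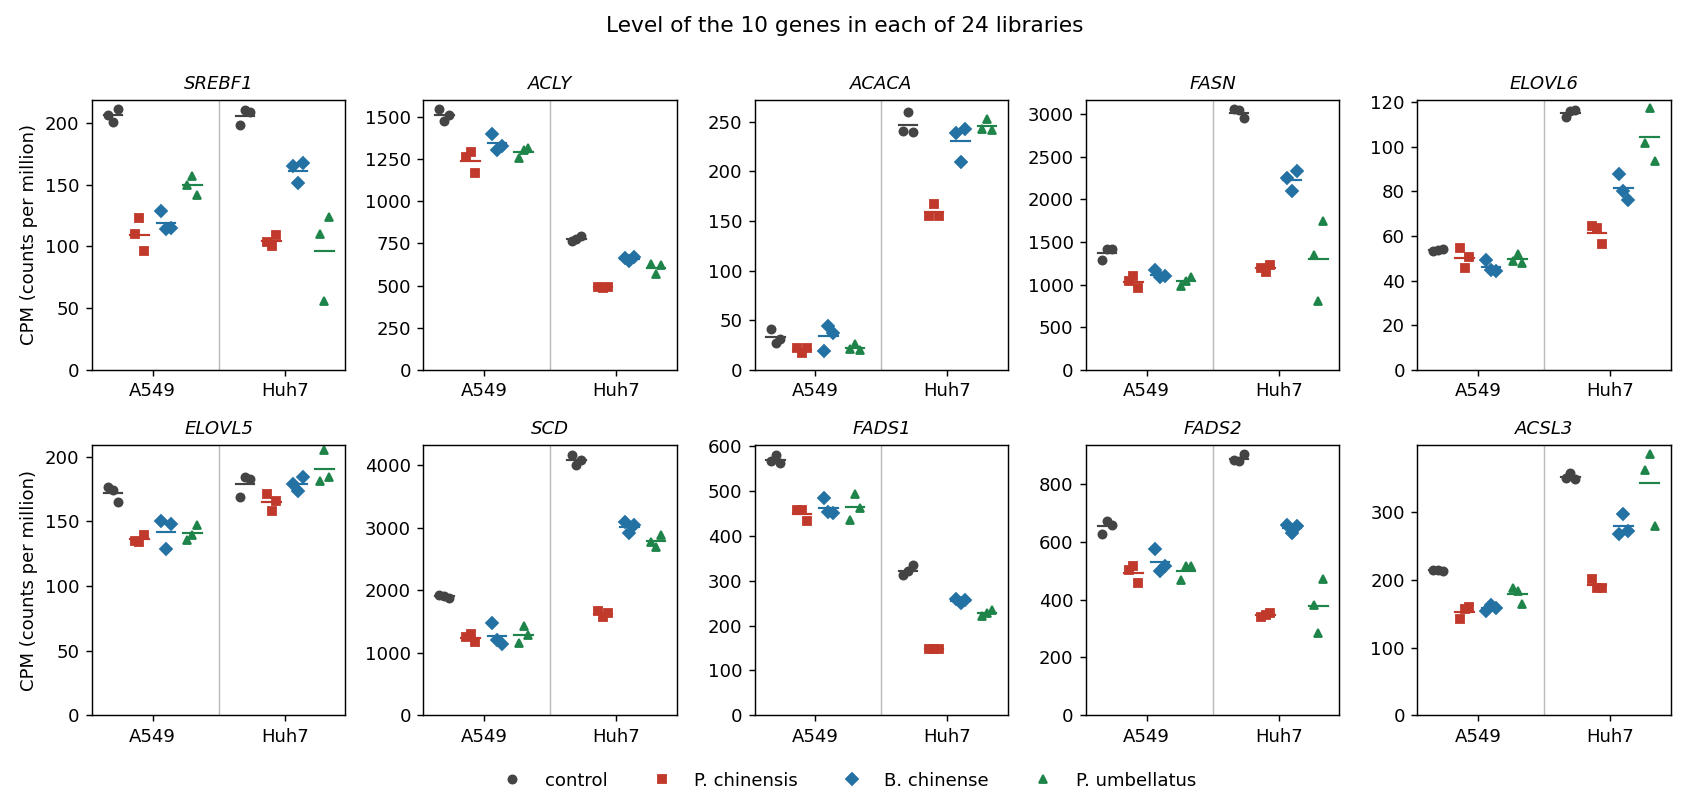
Level of each gene in CPM (linear axis from 0) in every library, grouped by line and treatment, with points for the 3 replicates and a short line for their mean. In Huh7 cells the P. chinensis libraries lie below those of B. chinense for all 10 genes, and the P. umbellatus libraries of SREBF1 spread from 55.75 to 124.1 CPM.

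In control cells the levels per kilobase of the canonical transcript, which allow genes to be compared, ran from 369.6 CPM per kilobase for SCD to 3.33 for ACACA in A549 cells. After SCD came ACLY at 358.3, with ranges that overlapped, then FADS2 at 214.6, FASN at 164.9, FADS1 at 132.7, ELOVL5 at 63.2, SREBF1 at 42.8, ACSL3 at 39.1 and ELOVL6 at 8.31 CPM per kilobase. In Huh7 controls SCD was again first at 790.8 CPM per kilobase, followed by FASN at 362.2, FADS2 at 291.4, ACLY at 184.2, FADS1 at 75.1, ELOVL5 at 65.6, ACSL3 at 64.2, SREBF1 at 42.7, ACACA at 25.0 and ELOVL6 at 17.8. The order was not the same in the 2 lines, with ACLY second in A549 cells and after FASN and FADS2 in Huh7 cells, and the ranges of ELOVL5 and ACSL3 overlapped in Huh7 cells.

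Tested between the controls of the lines, 2 members were higher and 6 lower in A549 cells, where 33.8% of all genes tested were higher and 34.9% lower. ACLY was higher by 0.96 ± 0.05 on the log2 scale (± SE) and FADS1 by 0.82 ± 0.05. ACACA was the most unequal, at 26.6 to 40.9 CPM in A549 and 239.5 to 259.9 CPM in Huh7 controls, a log2 difference of -2.91 ± 0.18. FASN (-1.14 ± 0.15), SCD (-1.10 ± 0.08), ELOVL6 (-1.10 ± 0.08), ACSL3 (-0.72 ± 0.08) and FADS2 (-0.44 ± 0.11) were also lower in A549 cells. SREBF1 and ELOVL5 did not pass the test, with differences of 0.00 ± 0.16 and -0.05 ± 0.06. Here and below a gene is called when its edgeR adjusted p is below 0.05 (quasi-likelihood test, adjusted by Benjamini and Hochberg's method over all genes tested).

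Each herb was next compared with the control of the same line. The 3 comparisons of a line share their 3 control libraries. In A549 cells P. chinensis lowered 9 of 10 members with a median log2 fold change of -0.41, where 17.1% of all genes tested were lower and 15.8% higher. B. chinense lowered 8 (median -0.30), beside 15% of all genes lower and 13.1% higher, and P. umbellatus lowered 8 (median -0.34), beside 14.8% lower and 13.4% higher. The median over all genes tested was between -0.01 and 0.01 in these comparisons and between 0 and 0.03 in the Huh7 ones. In Huh7 cells P. chinensis lowered 9 of 10 with a median of -0.94, where 10.5% of genes were lower and 10.5% higher. B. chinense lowered 3 (median -0.34), beside 0.757% lower and 0.519% higher, and P. umbellatus lowered 6 (median -0.43), beside 17.8% lower and 19.3% higher.

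**Figure D2:**
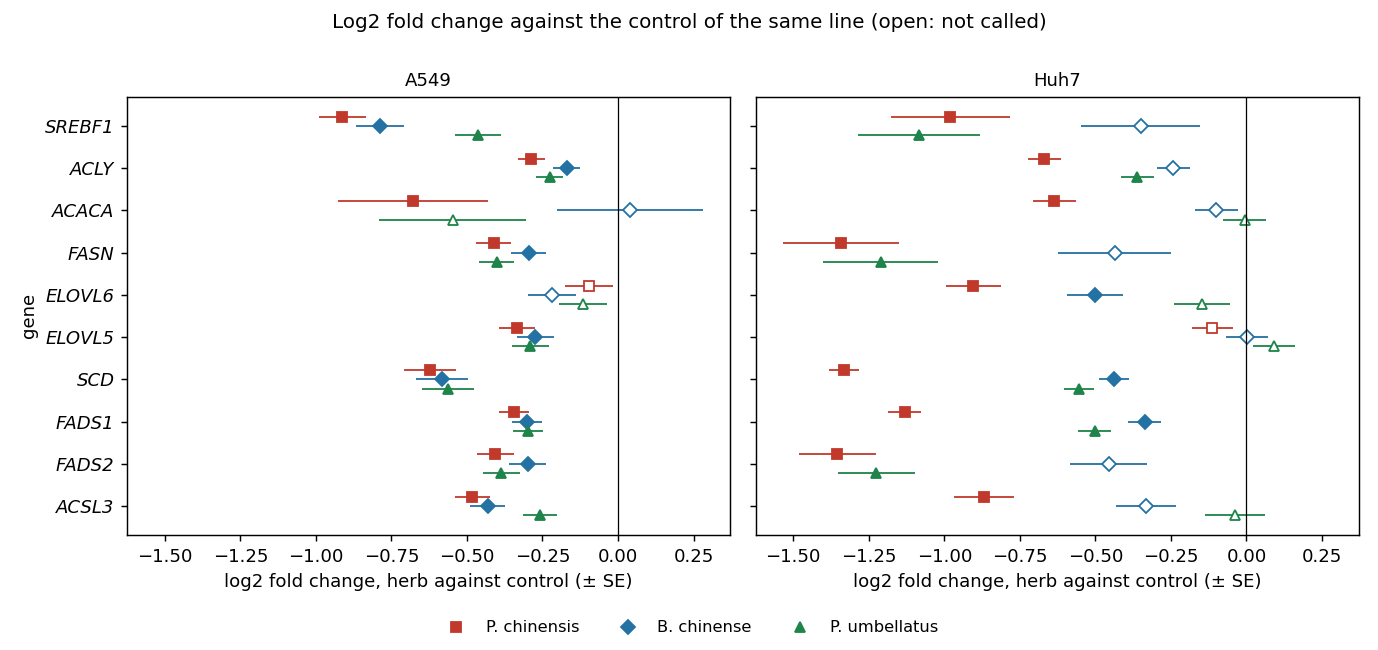
Log2 fold change of each gene against the control of its line (points, bars are SE), by herb, in A549 cells on the left and Huh7 cells on the right. Filled points are called and open points are not. In A549 cells SCD lies at -0.62, -0.58 and -0.56 with the 3 herbs, and in Huh7 cells P. chinensis reaches -1.35 for FADS2 while ELOVL5 lies between -0.11 and 0.09.

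SREBF1, the regulator, was measured in A549 controls at 207.0, 201.0 and 211.2 CPM and after P. chinensis at 109.8, 123.1 and 95.95 CPM. After B. chinense it stood at 128.7, 114.4 and 115.2 CPM and after P. umbellatus at 149.8, 157.0 and 141.6 CPM. No treated A549 library reached the controls, and P. umbellatus libraries lay above those of both other herbs. The log2 fold changes were -0.91 ± 0.08, -0.79 ± 0.08 and -0.46 ± 0.08, with edgeR adjusted p of 5.33e-07, 4.23e-06 and 0.00037. In Huh7 cells SREBF1 was at 198.3, 210.9 and 208.8 CPM in controls, at 103.5, 100.2 and 109.6 CPM with P. chinensis and at 165.5, 151.4 and 167.8 CPM with B. chinense. P. umbellatus gave 110.0, 55.75 and 124.1 CPM, with replicate 2 far below the other two. All 3 Huh7 groups lay below control without overlap. The falls with P. chinensis (-0.98 ± 0.20) and P. umbellatus (-1.08 ± 0.20) passed the test, at edgeR adjusted p of 0.00402 and 0.00255. With B. chinense the value of -0.35 ± 0.20 did not, at 0.529. Without replicate 2 of P. umbellatus these values were -0.98, -0.81 and, for B. chinense, -0.35 with an edgeR adjusted p of 0.00446.

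ACLY, which supplies cytosolic acetyl-CoA, showed small falls with narrow spread. A549 controls held 1549, 1479 and 1510 CPM, against 1261, 1290 and 1167 CPM with P. chinensis. B. chinense gave 1401, 1303 and 1329 CPM and P. umbellatus 1259, 1305 and 1316 CPM, so no herb library overlapped with control. The log2 fold changes were -0.29 ± 0.04, -0.17 ± 0.04 and -0.23 ± 0.04. The B. chinense call was lost without its replicate 2, at -0.15 and an edgeR adjusted p of 0.0529. In Huh7 cells ACLY went from 765.6, 775.1 and 794.3 CPM in controls to 492.3, 484.1 and 492.1 CPM with P. chinensis, a fall by 0.67 ± 0.05 on the log2 scale. B. chinense stood at 662.6, 643.4 and 667.7 CPM, below control in all 3 libraries, but its value of -0.24 ± 0.05 missed the threshold at an edgeR adjusted p of 0.053. P. umbellatus stood at 627.2, 568.8 and 622.1 CPM, a fall by 0.36 ± 0.05.

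ACACA, the enzyme of the committed step, differed between the 2 lines in level and spread. The difference of its response between the lines, A549 minus Huh7, was not called for any herb (0.01, 0.18 and -0.46). In A549 cells it was scarce and scattered, with 40.92, 26.56 and 30.86 CPM in controls and 21.89, 16.78 and 22.3 CPM with P. chinensis. B. chinense spread from 19.3 to 44.61 CPM, across the whole control range, and P. umbellatus from 19.96 to 25.51 CPM. The P. chinensis value of -0.68 ± 0.25 was called at an edgeR adjusted p of 0.0468, but lost the call in 9 of the 12 fits that left out 1 library, among them each P. chinensis library (-0.73, -0.56 and -0.75), control replicates 1 and 3 (-0.50 and -0.72), B. chinense replicate 3 and all P. umbellatus libraries (-0.68 each). The values with B. chinense (0.04 ± 0.24) and P. umbellatus (-0.55 ± 0.24) were not called. In Huh7 cells ACACA was steady, at 240.9, 259.9 and 239.5 CPM in controls and 154.8, 167.0 and 154.5 CPM with P. chinensis, a fall by 0.64 ± 0.07. B. chinense (208.9 to 243.0 CPM, -0.10 ± 0.07) and P. umbellatus (241.5 to 252.8 CPM, -0.01 ± 0.07) overlapped with control and were not called.

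FASN, which builds palmitate, fell with all herbs in A549 cells. Its levels were 1285, 1415 and 1416 CPM in controls, 1044, 1096 and 954.6 CPM with P. chinensis, 1173, 1084 and 1097 CPM with B. chinense and 987.5, 1045 and 1086 CPM with P. umbellatus. No treated library reached a control, and the log2 fold changes were -0.41 ± 0.06, -0.30 ± 0.06 and -0.40 ± 0.06. Huh7 controls held more FASN, at 3056, 3046 and 2949 CPM, and P. chinensis brought it to 1190, 1145 and 1235 CPM, or 0.394 of control (-1.34 ± 0.19, edgeR adjusted p 3.86e-04). B. chinense libraries stood in between at 2256, 2103 and 2329 CPM, with a value of -0.44 ± 0.19 that was not called (edgeR adjusted p 0.365). It was called without replicate 2 of P. umbellatus, at the same -0.44 and an edgeR adjusted p of 0.0053. P. umbellatus gave 1349, 812.4 and 1747 CPM and a fall by 1.21 ± 0.19, which was 0.96 without that library.

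The elongases ELOVL6 and ELOVL5 gave calls in different lines. ELOVL6, which lengthens palmitate, was at 53.21, 53.80 and 54.09 CPM in A549 controls, and its A549 values of -0.10, -0.22 and -0.12 (SE 0.08 each) were not called. The B. chinense value, from 44.29 to 49.18 CPM and below every control, had an edgeR adjusted p of 0.0561, and passed without P. chinensis replicate 1 (-0.22) or B. chinense replicate 1 (-0.27). In Huh7 cells ELOVL6 fell from 113.3, 116.2 and 116.4 CPM to 64.63, 63.43 and 56.36 CPM with P. chinensis (-0.90 ± 0.09) and to 87.95, 80.32 and 76.25 CPM with B. chinense (-0.50 ± 0.09). P. umbellatus, at 101.8, 117.4 and 93.39 CPM, overlapped with control and was not called (-0.15 ± 0.09), but was called without replicate 2 (-0.24, edgeR adjusted p 0.027). ELOVL5, which lengthens polyunsaturated chains, was at 176.3, 174.4 and 164.8 CPM in A549 controls. It fell there to 133.9 to 139.6 CPM with P. chinensis, 128.3 to 150.4 CPM with B. chinense and 135.3 to 146.9 CPM with P. umbellatus, with log2 fold changes of -0.33 ± 0.06, -0.27 ± 0.06 and -0.29 ± 0.06. In Huh7 cells all groups overlapped, between 158.3 and 205.0 CPM, and the values of -0.11, 0.00 and 0.09 (SE 0.07 each) were not called. After correction for GC content and length the ELOVL5 call with B. chinense in A549 cells was lost, at -0.15 and an edgeR adjusted p of 0.065. The P. chinensis value in Huh7 cells was then also -0.15, and called at 0.0374.

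SCD, the desaturase that makes oleate and palmitoleate and the most abundant member per kilobase in controls, fell with every herb in both lines. In A549 cells controls stood at 1930, 1907 and 1881 CPM, P. chinensis at 1245, 1305 and 1167 CPM, B. chinense at 1475, 1205 and 1137 CPM and P. umbellatus at 1161, 1427 and 1286 CPM. The herb groups overlapped with each other and not with control. Their log2 fold changes were -0.62 ± 0.09, -0.58 ± 0.09 and -0.56 ± 0.09. In Huh7 cells 4164, 3999 and 4083 CPM in controls became 1660, 1575 and 1633 CPM with P. chinensis, 3089, 2906 and 3034 CPM with B. chinense and 2766, 2689 and 2888 CPM with P. umbellatus. Here P. chinensis was well separated from the rest, at -1.33 ± 0.05 (edgeR adjusted p 4e-08), while B. chinense (-0.44 ± 0.05) and P. umbellatus (-0.55 ± 0.05) fell less.

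FADS1 and FADS2, the delta-5 and delta-6 desaturases, fell together in A549 cells. FADS1 was at 567.5, 579.8 and 561.5 CPM in controls, and its log2 fold changes were -0.34, -0.30 and -0.30 (SE 0.05 each). FADS2 was at 626.7, 670.8 and 659.0 CPM and changed by -0.41, -0.30 and -0.39 (SE 0.06 each). The highest treated library was 493.4 CPM for FADS1 and 572.8 CPM for FADS2, below every control. In Huh7 cells FADS1 was at 311.9, 321.4 and 334.2 CPM in controls, 146.9, 147.7 and 146.8 CPM with P. chinensis, 259.3, 249.5 and 257.5 CPM with B. chinense and 220.9, 227.3 and 234.7 CPM with P. umbellatus. Each herb group was apart from the others, with changes of -1.13 ± 0.06, -0.34 ± 0.05 and -0.50 ± 0.06. FADS2 was at 880.2, 878.0 and 901.7 CPM in Huh7 controls, 341.0, 347.1 and 352.5 CPM with P. chinensis, 655.8, 631.2 and 652.5 CPM with B. chinense and 382.8, 284.8 and 469.3 CPM with P. umbellatus. It fell by 1.35 ± 0.13 with P. chinensis, to 0.391 of control, and by 1.22 ± 0.13 with P. umbellatus, or 1.06 without replicate 2. With B. chinense the value of -0.46 ± 0.13 was not called (edgeR adjusted p 0.119).

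ACSL3, an acyl-CoA synthetase of lipid droplets and the endoplasmic reticulum, was nearly constant in A549 controls at 215.4, 214.7 and 213.0 CPM. It stood at 142.6, 157.4 and 159.7 CPM with P. chinensis, 154.8, 162.9 and 158.9 CPM with B. chinense and 188.3, 184.4 and 163.8 CPM with P. umbellatus. All 3 fell, by 0.48 ± 0.06, 0.43 ± 0.06 and 0.26 ± 0.06. In Huh7 cells it went from 350.8, 357.6 and 348.5 CPM to 201.8, 188.0 and 188.7 CPM with P. chinensis (-0.87 ± 0.10). B. chinense, at 268.5, 298.1 and 272.0 CPM, lay below control and was not called (-0.33 ± 0.10, edgeR adjusted p 0.154). P. umbellatus, at 362.7, 386.8 and 280.1 CPM, lay on both sides of control (-0.04 ± 0.10).

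The number of B. chinense calls in Huh7 cells changed with the libraries and the method used, and the cause was not tested. The count of 3 became 6 with DESeq2 and 8 with voom or with the correction for GC content and length. Shares of all genes called are given for the reported fits only. Counts under other settings, here and below, have no such share beside them. A rise in these counts is thus not set apart from a rise in calls over all genes. The count of 3 also became 8 when only the control and B. chinense libraries were fitted and 8 without replicate 2 of P. umbellatus. The median log2 fold change stayed between -0.37 and -0.34 in every fit that left out 1 library. The count was 6 without P. umbellatus replicate 3. It was 1 without B. chinense replicate 2, B. chinense replicate 3, control replicate 2 or control replicate 3. The FADS1 call (edgeR adjusted p 0.0112) was lost without any of these last 4 libraries, at -0.32, -0.35, -0.34 and -0.31. The ELOVL6 call (0.0185) was lost without these 4 (-0.49, -0.46, -0.50 and -0.49) and without control replicate 1 (-0.51), and SCD was called throughout.

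To ask whether P. chinensis stood apart from the other two herbs, it was compared with their mean within each line. In A549 cells 1 member, SREBF1, was lower (-0.29 ± 0.07, edgeR adjusted p 0.0338), beside 2.42% of all genes lower and 1.15% higher, and the median of the members was -0.06. That call was lost without P. chinensis replicate 1 (-0.29) or 3 (-0.19), B. chinense replicate 1 (-0.26), control replicate 2 (-0.29), or P. umbellatus replicate 1 (-0.29) or 2 (-0.27), and after the GC and length correction (-0.23). In Huh7 cells 8 members were lower with P. chinensis than with the other two, with a median of -0.55, beside 12.1% of all genes lower and 9.69% higher. The values were -0.83 for SCD, -0.71 for FADS1, -0.68 for ACSL3, -0.58 for ELOVL6 and ACACA, -0.51 for FADS2 and -0.37 for ACLY. FASN, at -0.52 and an edgeR adjusted p of 0.0427, lost its call in 10 of the 12 fits that left out 1 library, and lay between -0.64 and -0.38 over all 12, with both ends called (without P. umbellatus replicate 2 and replicate 3). The values of SREBF1 (-0.26) and ELOVL5 (-0.16) were not called. That of SREBF1 was called with voom (-0.35) and after the GC and length correction (-0.52), and that of ELOVL5 with voom (-0.13) and DESeq2 (-0.16). Without P. umbellatus replicate 2 all 10 were called, SREBF1 at -0.40 and ELOVL5 at -0.13.

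The responses of the lines were then compared directly, as the log2 fold change in A549 minus that in Huh7. For P. chinensis 7 members differed, all with the larger fall in Huh7 cells, beside 10.3% of all genes higher and 9.3% lower. The differences were 1.0 ± 0.15 for FADS2, 0.98 ± 0.21 for FASN, 0.86 ± 0.12 for ELOVL6, 0.84 ± 0.07 for FADS1, 0.76 ± 0.11 for SCD, and 0.44 for both ACSL3 (± 0.12) and ACLY (± 0.07). The difference of SREBF1, 0.12 ± 0.22, was not called, with fold changes of -0.91 and -0.98 in the 2 lines. The differences of ACACA (0.01 ± 0.26) and ELOVL5 (-0.17 ± 0.09) were also not called. For B. chinense 0 members differed by edgeR, beside 5.8% of all genes higher and 5.8% lower. At an unadjusted p below 0.05 there were 2, ELOVL6 (0.32 ± 0.12) and ELOVL5 (-0.23 ± 0.09), and DESeq2 called 0. Without P. umbellatus replicate 2 of Huh7 cells 3 were called, SREBF1 at -0.40, ELOVL6 at 0.33 and ELOVL5 at -0.23. For P. umbellatus 5 members were higher and 1 lower, beside 19.1% of all genes higher and 15.3% lower. These were FADS2 at 0.92, FASN at 0.89, SREBF1 at 0.70, FADS1 at 0.29, ACLY at 0.22 and ELOVL5 at -0.30. The SREBF1 call was lost without Huh7 control replicate 2 (0.64, edgeR adjusted p 0.0502), and without Huh7 P. umbellatus replicate 2 SREBF1 was at 0.43, FASN at 0.64 and FADS2 at 0.75, all called. The ACLY call was lost in 10 of the 24 fits that left out 1 library, between 0.15 and 0.27, and that of ELOVL5 without A549 P. umbellatus replicate 1 (-0.23).

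**Figure D3:**
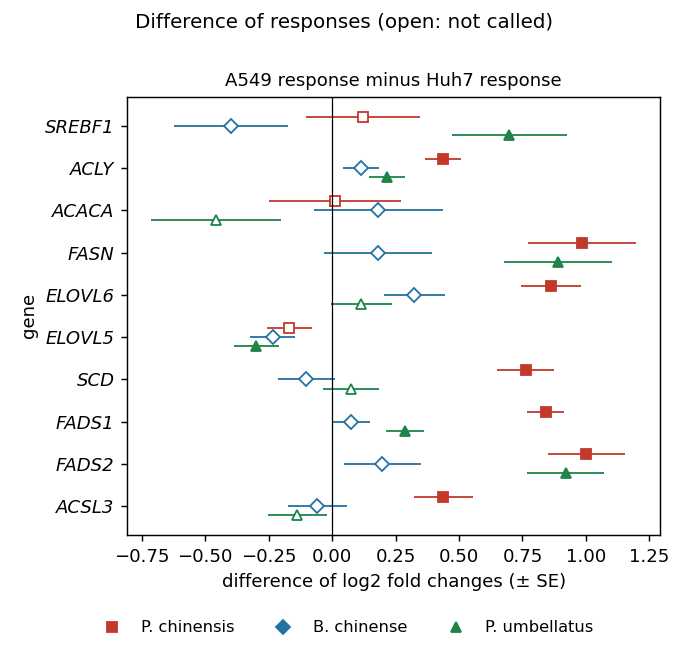
Difference of each gene's log2 fold changes, A549 less Huh7 (points, bars are SE), by herb, with filled points called. For P. chinensis 7 genes lie between 0.44 and 1.0, above 0, and SREBF1, ACACA and ELOVL5 do not.

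The P. umbellatus values in Huh7 cells moved with the base composition of the transcripts. GC content is the share of G and C bases in the canonical transcript. The members richest in GC, FASN (65.3%), SREBF1 (63.2%) and FADS2 (59.0%), had the largest falls there, at -1.21, -1.08 and -1.22. The poorest, ACSL3 (37.4%), ELOVL5 (39.9%) and ELOVL6 (41.4%), had -0.04, 0.09 and -0.15. When each library was corrected for GC content and length, FASN changed from -1.21 to -0.30, SREBF1 to -0.36 and FADS2 to -0.72, all still called. ACSL3 changed to -0.40 and ELOVL6 to -0.41, both now called, and SCD and FADS1 to -0.69 and -0.54. The count of members lowered was 8 after correction. With P. chinensis the correction moved the values less, FASN from -1.34 to -1.13 and SREBF1 from -0.98 to -0.85. After correction the line difference of FASN with P. umbellatus turned to -0.27 (edgeR adjusted p 0.0252), that of SREBF1 to -0.22, which was not called, and that of FADS2 stood at 0.34, called. The line differences of ACLY and ELOVL5 with P. umbellatus lost their calls, at 0.00 and -0.03, that of FADS1 stood at 0.21, called, and that of ELOVL6, at 0.28, was now called. Why GC content moved with these values was not tested.

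**Figure D4:**
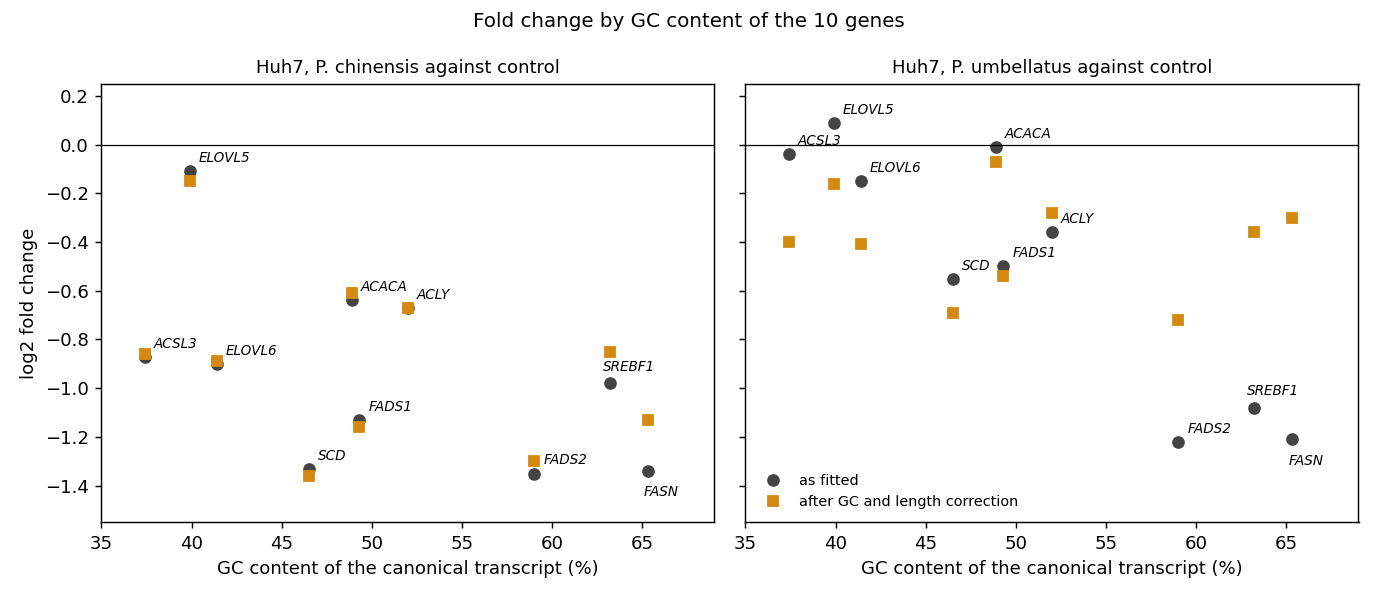
Log2 fold change in Huh7 cells with P. chinensis (left) and P. umbellatus (right) against the GC content of the canonical transcript in percent, as fitted (circles) and after correction for GC content and length (squares). With P. umbellatus FASN moved from -1.21 to -0.30, and with P. chinensis from -1.34 to -1.13.

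Many pairs of members varied together across libraries, with a correlation above 0.8 in 22 of 45 pairs in A549 cells and 20 of 45 in Huh7 cells. Others did not, such as ACACA in A549 cells, at most 0.425 with any member, and SREBF1 with ELOVL5 in Huh7 cells (-0.211). Over the 12 libraries of a line the median Pearson correlation of log2 CPM among the 45 pairs was 0.80 in A549 cells (from -0.05 to 0.99) and 0.79 in Huh7 cells (from -0.21 to 0.99). These libraries share controls, depth and base composition. They pool control and treated groups, so the correlations also carry the fold changes given above, and no pairs of other genes are given beside them. The genes outside the group whose pattern was most like that of FASN in Huh7 cells were DHCR7 (r = 0.987), PGPEP1 (0.982) and H1-4 (0.981). For FADS2 they were DHCR7 (0.991), CBS (0.984) and ASAP3 (0.984), and for SCD they were PAQR9 (0.989), TICRR (0.986) and MCM3 (0.986), out of 11245 genes over 12 libraries. In A549 cells SCD was most like LRRC8D (0.976), GPRIN3 (0.972) and SP1 (0.971), out of 10855 genes.

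The rest of the lipid pathway was read from 8 lists, with their counts to be read against the shares of all genes called in each comparison: 15.8%, 13.1% and 13.4% higher and 17.1%, 15% and 14.8% lower in A549 cells, and 10.5%, 0.519% and 19.3% higher and 10.5%, 0.757% and 17.8% lower in Huh7 cells, in the order P. chinensis, B. chinense, P. umbellatus. The 23 genes of cholesterol synthesis and uptake are targets of the related factor SREBP2. Their calls differed most between the lines with P. chinensis. In Huh7 cells 19 fell and 0 rose with P. chinensis (median -0.87), 4 fell with B. chinense (-0.28) and 14 with P. umbellatus (-0.36). In A549 cells 6 rose and 5 fell with P. chinensis (median 0.04), 2 rose and 8 fell with B. chinense (-0.07) and 1 rose and 10 fell with P. umbellatus (-0.16). TM7SF2, a sterol reductase, rose by 1.32, 1.02 and 1.07 in A549 cells, and MVD rose there with P. chinensis (0.62). FDPS fell in A549 cells with B. chinense (-0.56) and ACAT2 with P. umbellatus (-0.65). In Huh7 cells MVD fell with P. chinensis (-1.42) and with P. umbellatus (-1.66).

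**Figure D5:**
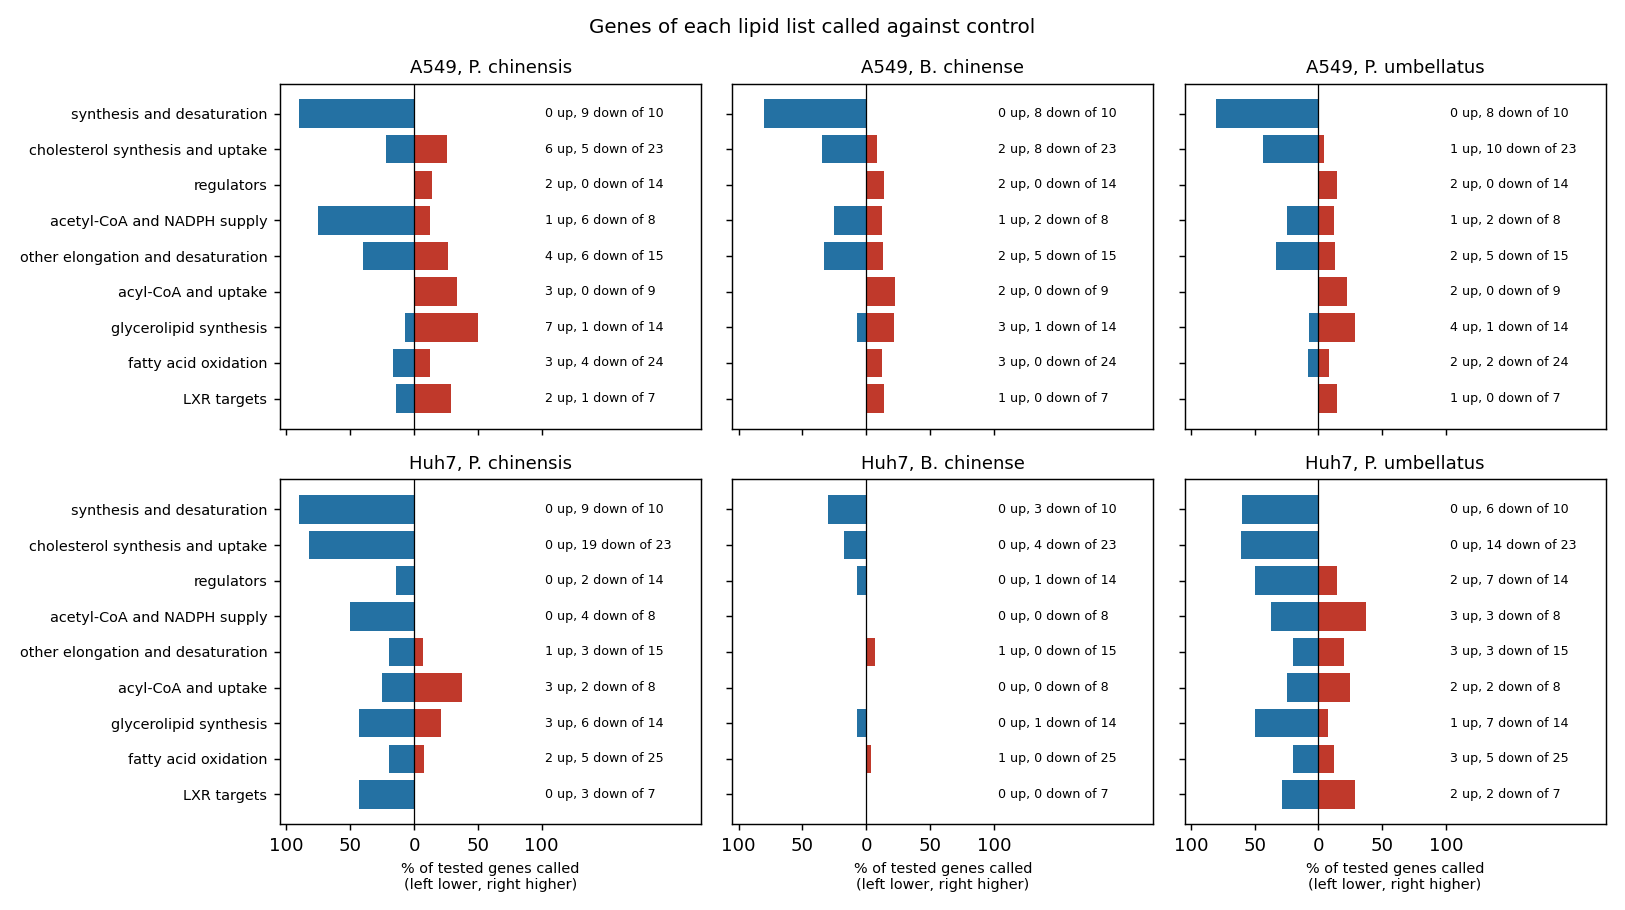
Share of the tested genes of each lipid list called lower (left, blue) or higher (right, red) against control, in percent, for 3 herbs in both lines, with counts beside each bar. Of the 10 synthesis and desaturation genes, 9, 8 and 8 are called lower in the A549 panels and 9, 3 and 6 in the Huh7 panels. In each panel 0 of them are called higher. The cholesterol list has 19, 4 and 14 lower and 0 higher in the 3 Huh7 panels.

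Among the 14 tested regulators, 2 rose and 0 fell with each herb in A549 cells, where 15.8%, 13.1% and 13.4% of all genes rose, a share near that of the list. SCAP, which escorts SREBPs to the Golgi, was one of them each time, at 0.20 ± 0.07, 0.28 ± 0.07 and 0.26 ± 0.07. In Huh7 cells SCAP fell with P. umbellatus (-0.47 ± 0.14) and was not called with the other two (-0.26 and -0.05), and its line difference was called for P. chinensis (0.51) and P. umbellatus (0.81). INSIG1, which holds SREBPs in the endoplasmic reticulum and is itself a target of them, was at 50.5 to 60.3 CPM in A549 controls and at 45.86 to 69.03 CPM over the 9 treated libraries, with values of 0.16, -0.10 and -0.23 that were not called. In Huh7 cells INSIG1 fell from 212.5, 204.4 and 205.8 CPM to 63.99, 60.42 and 60.8 CPM with P. chinensis (-1.75 ± 0.08), by 0.69 with B. chinense and by 0.66 with P. umbellatus. Its difference between the lines was called for every herb, at 1.96, 0.63 and 0.51. SREBF2, which encodes SREBP2, was called in 1 of the 6 comparisons with control, P. umbellatus in Huh7 cells (-0.75 ± 0.16). NR1H3 and MLXIPL, which encode the lipogenic factors LXR alpha and ChREBP, were not called in any of the 6. In Huh7 cells 2 of the 14 fell with P. chinensis, 1 with B. chinense, and 7 fell and 2 rose with P. umbellatus.

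The supply of acetyl-CoA and NADPH was covered by 8 genes. In A549 cells 6, 2 and 2 of them fell and 1 rose each time. PGD, of the pentose phosphate pathway, was among those that fell (-0.55, -0.35 and -0.33). ACSS2, which makes acetyl-CoA from acetate, was the one that rose, from 19.38 to 20.52 CPM in controls to between 30.2 and 35.16 CPM with the herbs, by 0.69 with each. In Huh7 cells ACSS2 fell from 49.01 to 51.47 CPM in controls to 14.22 to 18.14 CPM with P. chinensis (-1.63) and to 16.57 to 28.74 CPM with P. umbellatus (-1.16). Its line difference was called for each herb, at 2.37, 1.27 and 1.93. In Huh7 cells 4, 0 and 3 of the 8 fell and 0, 0 and 3 rose.

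Of the 15 other elongation and desaturation genes tested, 4 rose and 6 fell with P. chinensis in A549 cells, and 2 rose and 5 fell with each of the other herbs. FADS3, a desaturase next to FADS1 and FADS2, rose there (0.66, 0.68 and 0.74), as did ELOVL1 (0.58, 0.33 and 0.51), while CYB5A, the cytochrome that passes electrons to the desaturases, fell (-0.45, -0.33 and -0.39). In Huh7 cells 1, 1 and 3 rose and 3, 0 and 3 fell. ELOVL4, which makes very long chains, rose in each comparison, by 1.82, 1.05 and 1.40. Glycerolipid synthesis, with 14 genes tested, showed 7, 3 and 4 higher and 1 lower each time in A549 cells, and 3, 0 and 1 higher and 6, 1 and 7 lower in Huh7 cells. GPAM, the first acyltransferase of triglyceride synthesis, fell in Huh7 cells by 1.41, 0.55 and 0.49 with the 3 herbs in that order.

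Other acyl-CoA and uptake genes gave 3, 2 and 2 higher and 0 lower of 9 in A549 cells, and 3, 0 and 2 higher and 2, 0 and 2 lower of 8 in Huh7 cells. Of the fatty acid oxidation genes, 3, 3 and 2 rose and 4, 0 and 2 fell of 24 in A549 cells. In Huh7 cells 2, 1 and 3 rose and 5, 0 and 5 fell of 25. The A549 counts for P. chinensis, the A549 count higher with B. chinense and the Huh7 count lower with P. umbellatus were near the shares of all genes. Not all counts near these shares are marked in the other lists. CPT1A, which admits fatty acids to mitochondria, rose in Huh7 cells with every herb, by 1.38, 0.89 and 1.06. Its level went from 16.47 to 17.01 CPM in controls to 42.58 to 45.1 CPM, 28.41 to 34.18 CPM and 29.63 to 37.88 CPM. In the same line PDK4 rose (1.07) and EHHADH fell (-0.54) with P. chinensis. ACADS (-0.93) and ECI1 (-0.80) fell there with P. umbellatus. The 7 LXR targets gave 2, 1 and 1 higher and 1, 0 and 0 lower in A549 cells, and 0, 0 and 2 higher and 3, 0 and 2 lower in Huh7 cells. ABCA1, the cholesterol exporter, rose in A549 cells from 43.67 to 48.65 CPM to between 115.9 and 192.9 CPM over the 9 treated libraries (1.93, 1.55 and 1.95). In Huh7 cells it fell by 0.46 with P. chinensis and rose by 0.23 with P. umbellatus.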

How the data were processed

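Total RNA of 24 libraries was prepared with a stranded kit after ribosomal RNA removal and sequenced as read pairs. The authors pseudoaligned the reads with kallisto to the Ensembl cDNA set and deposited estimated counts per gene, kept here for 14585 genes. These are whole numbers, not normalised, and they were tested as deposited. The kallisto version and strand setting are not given in the sources used here, and no column was left unused.

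Groups were taken from the labels. Genes with a mean count over 5 in the line were kept (13633 in A549, 13875 in Huh7, 12924 in both), scaled by TMM and fitted with edgeR 4.0.16 (R 4.3.3, limma 3.58.1) by the quasi-likelihood test, 1 fit per line and 1 over both lines for the differences between lines, with Benjamini-Hochberg adjustment over all genes and a threshold of 0.05. Levels are CPM after TMM. Depth per library was 6803648 to 24345364 counts. On counts simulated for P. chinensis against control, 69 of 100 genes with a log2 change of 1 were recovered in A549 and 70 in Huh7. The changed genes were drawn at random from all genes kept.

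The members and lists were chosen with earlier results of these data known. Beyond the members, the text names at most 3 genes of a list per comparison, those of largest log2 fold change among its called genes whose mean count is 50 or more, and SREBF2, SCAP, INSIG1, NR1H3 and MLXIPL whatever their values; 1 gene so picked is not reported here. Alternatives were DESeq2 1.42.0, RLE and upper quartile scaling, no filter, only the groups compared, voom with quality weights, correction for GC content and length, a replicate block and leaving out each library.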

Additional observations from a re-analysis of the deposited data

Results flagged for a closer look

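The 13 values below were picked out because the response to one herb differed between the 2 lines by edgeR's test of the difference itself, given as the log2 fold change in A549 minus that in Huh7. With P. chinensis they were FADS2 (1), FASN (0.98), ELOVL6 (0.86), FADS1 (0.84), SCD (0.76), ACSL3 (0.44) and ACLY (0.44). With P. umbellatus they were FADS2 (0.92), FASN (0.89), SREBF1 (0.70), FADS1 (0.29), ACLY (0.22) and ELOVL5 (-0.30). Groups of 3 libraries were too small for the check for single libraries far from the rest.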

How the results depend on the processing

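The members called with B. chinense in Huh7 cells, 3 as reported, were 6 with DESeq2 and 8 with only the groups compared, with voom or with the GC and length correction, and 1 to 8 when 1 library was left out. SREBF1, called for P. chinensis against the other two herbs in A549 cells, left 0 with only the groups compared and 0 after the GC correction, and 0 to 1 when 1 library was left out. For the B. chinense difference between lines 0 became 2, 3 and 2 with only the groups compared, voom and the GC correction, and 0 to 3 without 1 library. For P. umbellatus 6 became 3 with only the groups compared. The GC correction turned the sign of the line difference for ACACA (-0.13) and SREBF1 (-0.12) with P. chinensis, FASN (-0.15) with B. chinense, and SREBF1 (-0.22), FASN (-0.27) and ACSL3 (0.17) with P. umbellatus, and of ACACA with B. chinense in A549 (-0.04), FASN for P. chinensis against the other two in A549 (0.03), and ELOVL5 in Huh7 with B. chinense (-0.01) and P. umbellatus (-0.16). The P. chinensis line difference of ACACA was also -0.01 with DESeq2, 0 with RLE, -0.01 with upper quartile and -0.02 with only the groups compared, and ELOVL5 with B. chinense in Huh7 was 0 without a filter and 0 with voom. The cause was not tested.

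Leaving out 1 library turned the sign of values near 0. ACACA ranged from -0.23 to 0.32 (A549, B. chinense), -0.04 to 0.01 (Huh7, P. umbellatus), and, as line differences, -0.12 to 0.19 (P. chinensis) and -0.10 to 0.47 (B. chinense). ACSL3 in Huh7 with P. umbellatus ranged from -0.13 to 0.09, ELOVL5 in Huh7 with B. chinense from -0.04 to 0.02, SCD for P. chinensis against the other two in A549 from -0.10 to 0.01, and the P. umbellatus line differences of ELOVL6 from -0.01 to 0.21 and of SCD from -0.01 to 0.18. Same-numbered libraries did not deviate together (r from -0.131 to 0.094), and with a replicate block 8, 8 and 8 members were called in A549 and 9, 3 and 6 in Huh7.

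With 3 libraries per group the self-test recovered 38 of 100 changes of 0.5 in A549 and 23 in Huh7, so small differences can be missed. Its changed genes were drawn at random from all genes kept, also those with low counts. The share recovered is therefore not that of the members.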
